A study of Mus musculus with 5 samples.

Results

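Genes of the red cell membrane, its enzymes and its transcription factors were examined in livers of mouse embryos at E18.5, late in gestation. The members were chosen from a list of 34 gene symbols with known erythroid roles, and 32 of them were found among the 23022 genes of the authors' deposited comparison table. Icam4 and Ahsp were not found there and were not analysed here. The 4N group held 3 libraries of liver from Hhex knockout embryos that had received 4N embryonic stem cells, positive for td-Tomato, as blastocysts. The WT group held 2 libraries of liver from normal embryos of the same day. The groups therefore differed at once in ploidy, in host genotype, in the injection and in the source of cells, which cannot be told apart. The labels do not say which blood cells of a 4N liver came from the host and which from the injected cells, nor whether a group's livers came from different litters, so p-values measure the spread between these libraries only. Heart and the other stage named in the design text were not analysed here.

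RNA was selected with poly-T beads and sequenced, and the table gives for each gene a mean normalized count over the 5 libraries, a log2 fold change with its standard error (SE), and Wald and adjusted p-values. It holds no values of single libraries, so the value of each embryo cannot be shown and the depth of each library is unknown. The means sum to about 78100000 normalized counts. The numerator of the fold change is not named. That positive values mean higher in 4N was inferred from genes taken to lack reads in 1 of the groups. These were picked as the genes with nearly the largest fold change for their mean, since values of single libraries are missing. With an assumed floor for the fitted value of an empty group, fold change and mean imply how many libraries held the reads. The implied number was 3.07 for 606 such genes with positive values, as for 4N, and 1.93 for 247 with negative values, as for WT. A gene was called when its adjusted p was under 0.05. Liver identity was clear from albumin, with 6210266 normalized counts in 4N and 6185296 in WT livers and a log2 fold change of 0.01 (SE 0.22) per the authors' deposited table. The group means given throughout are those implied by the table's mean and fold change together, since 3 parts 4N and 2 parts WT make up the mean.

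The fetal liver is the main site of red cell formation until shortly before birth. Erythroid precursors divide under the control of the transcription factors Gata1, Tal1 and Klf1 and depend on erythropoietin and on iron taken up through the transferrin receptor. Later they fill with hemoglobin, build a spectrin skeleton under the membrane, clear their mitochondria and expel the nucleus. The early members here are the transcription regulators and receptors, and the late members are the genes of the membrane skeleton and of clearance and enucleation.

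Erythroid genes were higher in 4N liver on the authors' scaling, and the late members chosen here had the higher median change. Recentring on the adult beta globins moves every gene down by 1.87, so any value below that turns negative by subtraction alone. After it, 0 members were higher and 18 of 32 lower, beside 254 higher and 16087 lower of all 23022 genes. All directions given from here on are on the authors' scaling unless another is named. Of the 32 measured members, 29 rose, 1 fell and 2 did not pass the test, and 25 of the 29 rose by at least 2-fold. Over all genes, 7.94% rose and 7.41% fell, and among the 8656 genes with means from 1000 normalized counts up, where all 32 members stood, 11.9% rose and 10.3% fell. Those shares were 1828 higher and 1705 lower genes, and recentring on the secreted plasma proteins, which moves every gene up by 0.60, gave 7089 and 835. The median log2 fold change was 1.31 over the 32 members, against -0.0010 over all genes and 0.023 over the 8656 abundant genes. The exceptions were Car1, which fell, and Tfrc and Aqp1, which did not pass. In bulk tissue, fewer cells of a type and less RNA per cell cannot be told apart, and the same holds for more cells and more RNA. A t distribution with 3 degrees of freedom, used instead of the normal, left 0 members called, while 26 of 32 had an unadjusted p under 0.05, 25 of them higher. By the same t distribution, 2513 of all 23022 genes had an unadjusted p under 0.05.

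**Figure D1:**
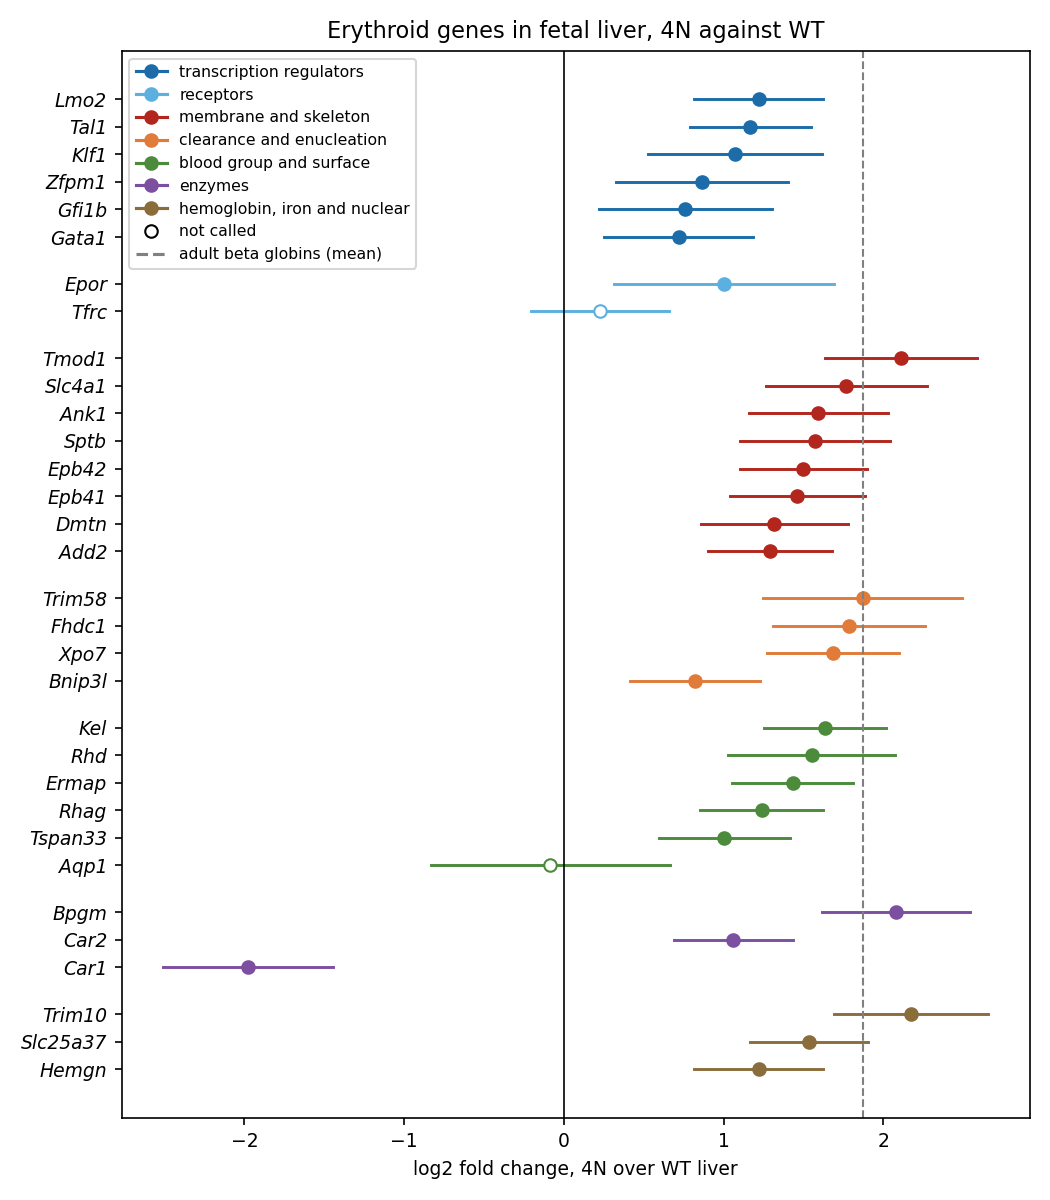
Log2 fold change of each measured erythroid gene, 4N over WT liver, with 95% intervals from the deposited standard errors, grouped by role. Filled points were called at an adjusted p under 0.05, and the dashed line marks the mean change of the adult beta globins, 1.87. All genes except Car1 and Aqp1 lie right of 0, and all except Trim10, Tmod1 and Bpgm lie left of the dashed line, which recentring on the globins would make the zero.

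Promoter sequences of 5 members are shown because they pair an early regulator (Klf1), the receptor that rose with the one that did not pass (Epor and Tfrc), a blood group gene (Kel) and the member with the highest fold change (Trim10). They are the RefSeq windows of build GRCm38.p6, matched by symbol, and run 5′ to 3′ with 250 bases before and 50 after the annotated start. The table itself was made on GRCm39, so these coordinates belong to the sequences only. The Klf1 window lies at chr8:84901732-84902031 (plus strand), that of Epor at chr9:21963527-21963826 (minus strand), the upstream one of 2 for Tfrc at chr16:32608646-32608945 (plus strand), that of Kel at chr6:41704276-41704575 (minus strand) and that of Trim10 at chr17:36869324-36869623 (plus strand). Capitals mark the words AGATAA and TGATAA, forms of the site that GATA factors bind, and CCNCNCCC, a form of the CACCC site that Klf1 binds, on either strand, with overlapping matches kept.
Klf1: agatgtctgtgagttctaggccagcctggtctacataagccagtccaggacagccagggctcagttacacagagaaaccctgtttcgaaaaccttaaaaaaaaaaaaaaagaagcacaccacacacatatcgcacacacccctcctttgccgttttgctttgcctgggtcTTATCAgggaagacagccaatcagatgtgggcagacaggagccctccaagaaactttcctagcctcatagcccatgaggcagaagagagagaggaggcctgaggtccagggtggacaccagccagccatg
Epor: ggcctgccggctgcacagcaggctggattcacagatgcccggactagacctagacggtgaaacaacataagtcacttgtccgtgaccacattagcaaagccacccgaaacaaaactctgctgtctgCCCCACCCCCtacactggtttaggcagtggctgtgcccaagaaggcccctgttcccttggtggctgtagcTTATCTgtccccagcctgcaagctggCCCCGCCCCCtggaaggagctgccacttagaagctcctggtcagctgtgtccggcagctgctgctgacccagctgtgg
Tfrc: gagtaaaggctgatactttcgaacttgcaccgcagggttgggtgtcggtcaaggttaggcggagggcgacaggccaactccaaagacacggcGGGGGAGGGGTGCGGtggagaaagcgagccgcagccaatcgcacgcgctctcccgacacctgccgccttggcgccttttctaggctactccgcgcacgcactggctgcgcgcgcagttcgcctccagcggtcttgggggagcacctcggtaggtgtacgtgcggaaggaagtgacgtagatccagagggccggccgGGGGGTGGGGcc
Kel: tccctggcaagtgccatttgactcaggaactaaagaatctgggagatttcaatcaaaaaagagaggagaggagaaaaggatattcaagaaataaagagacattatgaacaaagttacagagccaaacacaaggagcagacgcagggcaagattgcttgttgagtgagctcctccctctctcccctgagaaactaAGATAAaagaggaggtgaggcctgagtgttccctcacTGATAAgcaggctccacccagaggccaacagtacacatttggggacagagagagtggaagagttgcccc
Trim10: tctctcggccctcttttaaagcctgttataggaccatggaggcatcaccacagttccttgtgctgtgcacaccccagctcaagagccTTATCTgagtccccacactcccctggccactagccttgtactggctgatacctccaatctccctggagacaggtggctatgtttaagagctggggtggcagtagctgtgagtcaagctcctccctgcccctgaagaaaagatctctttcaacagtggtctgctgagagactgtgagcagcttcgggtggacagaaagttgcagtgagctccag

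The Klf1 window holds 1 GATA word, 80 bases before the start, and no CCNCNCCC. The Epor window holds 1 GATA word, 54 bases before the start, and 4 overlapping matches of CCNCNCCC. The Kel window has 2 GATA words, at 56 and 19 bases before the start, and the Trim10 window has 1 at 163 bases before it. The Tfrc window has no GATA word and 5 matches of CCNCNCCC. RefSeq windows were found for 23 of the 32 measured members. A GATA word stood in at least 1 window of 12 of these 23 genes (52.2%), against 21.0% of all 27025 genes with a window. CCNCNCCC stood in 16 of the 23 (69.6%), against 51.9% of all. Among early members 4 of 7 had a GATA word, and among late members 2 of 7. The 5 windows shown do not represent the 23 genes, and none is that of a late member. Tmod1, Bpgm, Trim58 and Gata1, which all rose, had no GATA word. Whether a GATA word goes with the fold change was not tested. A match is a description of the letters and not evidence of binding.

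All 6 transcription regulators rose, with a median of 0.97 on the log2 scale. All 6 lay below the mean of the adult beta globins, so recentring on it made them negative by subtraction, and all 6 were then called lower. Lmo2, an adaptor that links Tal1 to its partners, had 12309 normalized counts in 4N and 5281 in WT livers, with a log2 fold change of 1.22 (SE 0.21) per the authors' deposited table. Tal1, the helix-loop-helix factor of that complex, had 20236 in 4N and 9011 in WT livers and a change of 1.17 (SE 0.19) per the authors' deposited table. These 2 partners had the smallest adjusted p-values of the 6 (Wald test, Benjamini-Hochberg, 1.2e-07 for Lmo2 and 7.2e-08 for Tal1 per the authors' deposited table). Klf1, which switches on adult beta globin and many membrane genes, had 12159 in 4N and 5791 in WT livers (1.07, SE 0.28, per the authors' deposited table). The other 3 rose by less than 2-fold. Zfpm1, the Gata1 cofactor FOG1, had 19104 in 4N and 10483 in WT livers (0.87, SE 0.27, adjusted p = 0.014 per the authors' deposited table). Gfi1b, a repressor needed for red cell and platelet formation, had 2863 in 4N and 1688 in WT livers (0.76, SE 0.28, adjusted p = 0.040 per the authors' deposited table). Gata1, the master regulator of the lineage, had 6231 in 4N and 3787 in WT livers (0.72, SE 0.24, adjusted p = 0.021 per the authors' deposited table). Gata1, Zfpm1 and Gfi1b did not pass an adjusted p of 0.01, and of the 6 only Lmo2 passed a test against a 1.5-fold change.

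Of the receptors for erythropoietin and for iron, 1 rose and 1 did not pass. Epor, the erythropoietin receptor, had 6097 normalized counts in 4N and 3045 in WT livers, a log2 fold change of 1.00 (SE 0.35) and an adjusted p of 0.032 per the authors' deposited table. It did not pass at an adjusted p of 0.01. Tfrc, the transferrin receptor of erythroblasts and of other dividing cells, had 71736 in 4N and 61243 in WT livers and did not pass (0.23, SE 0.22, adjusted p = 0.59 per the authors' deposited table). The 95% interval of Tfrc, -0.20 to 0.66, lay below the median of the early members, 0.93. Tfrc was the 1 early member of 8 that was not called. After recentring on the secreted plasma proteins it passed, at 0.83 (adjusted p = 0.0011).

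The 8 genes of the membrane and its skeleton all rose, between 1.29 and 2.11 on the log2 scale, with a median of 1.54. All except Tmod1 lay below the mean of the adult beta globins, so recentring on it made them negative by subtraction. Tmod1, which caps the actin filaments of the skeleton, had 3804 normalized counts in 4N and 882 in WT livers, a log2 fold change of 2.11 (SE 0.24) and an adjusted p of 4.7e-16 per the authors' deposited table. Slc4a1, the anion exchanger band 3 and main protein of the red cell membrane, had 287944 in 4N and 84528 in WT livers (1.77, SE 0.26, per the authors' deposited table). Both ranked at the top of this group. Ank1, the ankyrin that ties band 3 to spectrin, had 44570 in 4N and 14766 in WT livers (1.59, SE 0.22, per the authors' deposited table). Sptb, the erythroid beta spectrin, had 84623 in 4N and 28432 in WT livers (1.57, SE 0.24, per the authors' deposited table). The spectrin anchor and spectrin itself thus stood within 0.1 of each other. Epb42, the band 3 partner protein 4.2, had 24762 in 4N and 8751 in WT livers (2.83-fold, SE 0.20 on the log2 scale, per the authors' deposited table). Epb41, protein 4.1, which joins spectrin to actin, had 75848 in 4N and 27516 in WT livers (1.46, SE 0.22, per the authors' deposited table). The remaining actin-binding pair was lowest. Dmtn, the actin bundler dematin, had 19287 in 4N and 7732 in WT livers (1.32, SE 0.23, per the authors' deposited table). Add2, beta adducin, had 14208 in 4N and 5801 in WT livers (1.29, SE 0.20, per the authors' deposited table). The 95% intervals of all 8 genes overlapped one another, and the largest adjusted p among them was 6.6e-07 (Wald test, Benjamini-Hochberg).

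Genes of clearance and enucleation rose too, in 4 of 4 cases. All 4 lay below the mean of the adult beta globins, so recentring on it made them negative by subtraction. Trim58, a ubiquitin ligase that acts on the motor dynein in late erythroblasts, had 2878 normalized counts in 4N and 787 in WT livers, a log2 fold change of 1.87 (SE 0.32) per the authors' deposited table. Fhdc1, a formin that binds actin and microtubules, had 10661 in 4N and 3094 in WT livers (1.78, SE 0.24, per the authors' deposited table). Xpo7, a nuclear export receptor that acts before enucleation in mouse erythroblasts, had 70147 in 4N and 21804 in WT livers (1.69, SE 0.21, per the authors' deposited table). Each of these 3 lay above at least 6 of the 8 skeleton genes. Bnip3l (also called Nix), which marks mitochondria for removal and is made in many tissues, had 19234 in 4N and 10878 in WT livers (0.82, SE 0.21, adjusted p = 0.0010 per the authors' deposited table). It was the 1 late member of 12 that rose by less than 2-fold.

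Set side by side, the early members had a median log2 fold change of 0.93, with a range of 0.23 to 1.22, and the late members a median of 1.58, with a range of 0.82 to 2.11. The medians correspond to 1.91-fold and 3.00-fold. Of the late members, 11 of 12 lay above the highest early member, Lmo2, and Bnip3l lay within the early range. Calls stood at 7 of 8 early and 12 of 12 late members. Against a 1.5-fold change, 1 early and 11 late members passed. Without the 2 receptors the early median was 0.97, and with the blood group and surface genes added the late median was 1.53. Other genes of the late roles stood lower than the early members. The median was 0.83 over 18 other membrane and skeleton genes and 0.32 over 15 other clearance and enucleation genes. Over 14 other erythroid transcription regulators it was 0.49. The order of early and late thus holds for the chosen members and not for every list of these roles. The difference between the early and late groups was not tested, since genes are not replicates and per-library values were not analysed here.

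**Figure D2:**
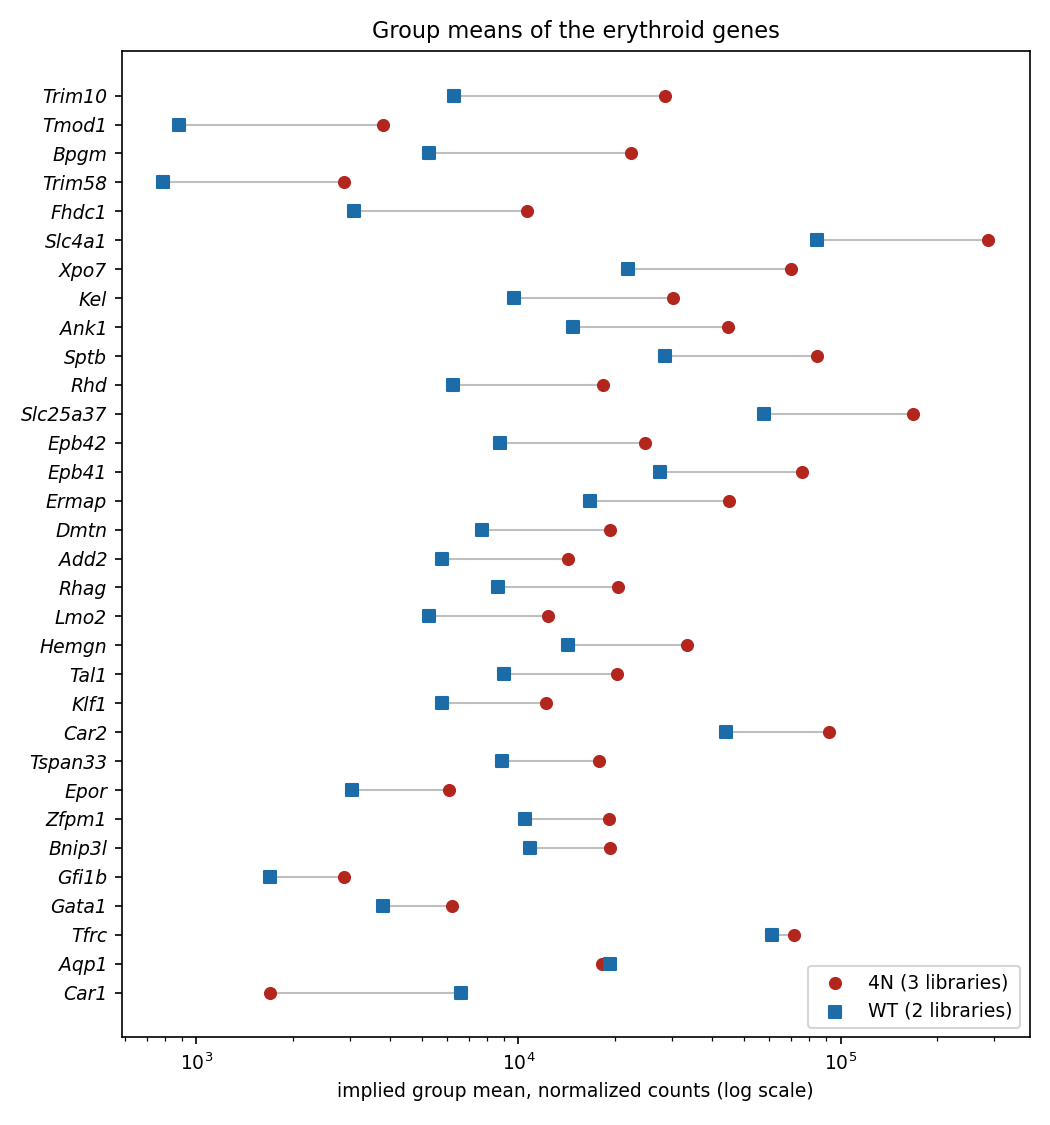
Implied group means of the measured erythroid genes in normalized counts on a log axis, in 4N (circles, 3 libraries) and WT livers (squares, 2 libraries), ordered by fold change. The points are group means without error bars, and only Car1 and Aqp1 have the 4N point left of the WT point.

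Of 6 measured blood group and surface genes, 5 rose. These 5 lay below the mean of the adult beta globins, so recentring on it made them negative by subtraction. Kel, the Kell blood group metalloprotease, had 30114 normalized counts in 4N and 9695 in WT livers, a log2 fold change of 1.64 (SE 0.20) per the authors' deposited table. Rhd, the mouse Rh protein, had 18356 in 4N and 6265 in WT livers (1.55, SE 0.27, per the authors' deposited table). Ermap, which carries the Scianna blood group in human red cells, had 45090 in 4N and 16711 in WT livers (1.43, SE 0.19, per the authors' deposited table). The Rh proteins travel to the surface as a complex. Rhag, the partner of Rhd in it, had 20352 in 4N and 8627 in WT livers (1.24, SE 0.20, per the authors' deposited table). Tspan33, a tetraspanin of the erythroid lineage, had 17784 in 4N and 8863 in WT livers (1.00, SE 0.21, per the authors' deposited table). Aqp1, the water channel of red cells, which endothelium and bile duct cells also make, had 18200 in 4N and 19306 in WT livers and did not pass (-0.09, SE 0.38, adjusted p = 0.93 per the authors' deposited table). Its standard error was the largest of the 32 members, which ranged from 0.19 to 0.38. Endothelial markers had 0 higher and 1 lower of 13, with summed group means of 51132 in 4N and 53041 in WT livers, and cholangiocyte markers 0 higher and 1 lower of 10. The part of these cells in the Aqp1 value was not tested.

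The 3 enzymes went in opposite directions. Bpgm makes 2,3-bisphosphoglycerate, which lowers the oxygen affinity of hemoglobin, and had 22288 normalized counts in 4N and 5272 in WT livers, a 4.23-fold difference. The carbonic anhydrases Car1 and Car2 hydrate carbon dioxide in the red cell and are close neighbours on mouse chromosome 3. Car2 had 92070 in 4N and 44093 in WT livers, a log2 fold change of 1.06 (SE 0.19) and an adjusted p of 8.9e-07 per the authors' deposited table. Car1 had 1688 in 4N and 6654 in WT livers, a change of -1.98 (SE 0.27, adjusted p = 2.2e-11) per the authors' deposited table. The 95% intervals were 0.69 to 1.44 for Car2 and -2.51 to -1.45 for Car1. In human red cells CA1 is scarce in the fetus and becomes abundant after birth. Whether that has a part in the Car1 value here was not tested. Car1 stayed called lower under each alternative except the t reference, and 6.94% of all genes had a lower value.

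**Figure D3:**
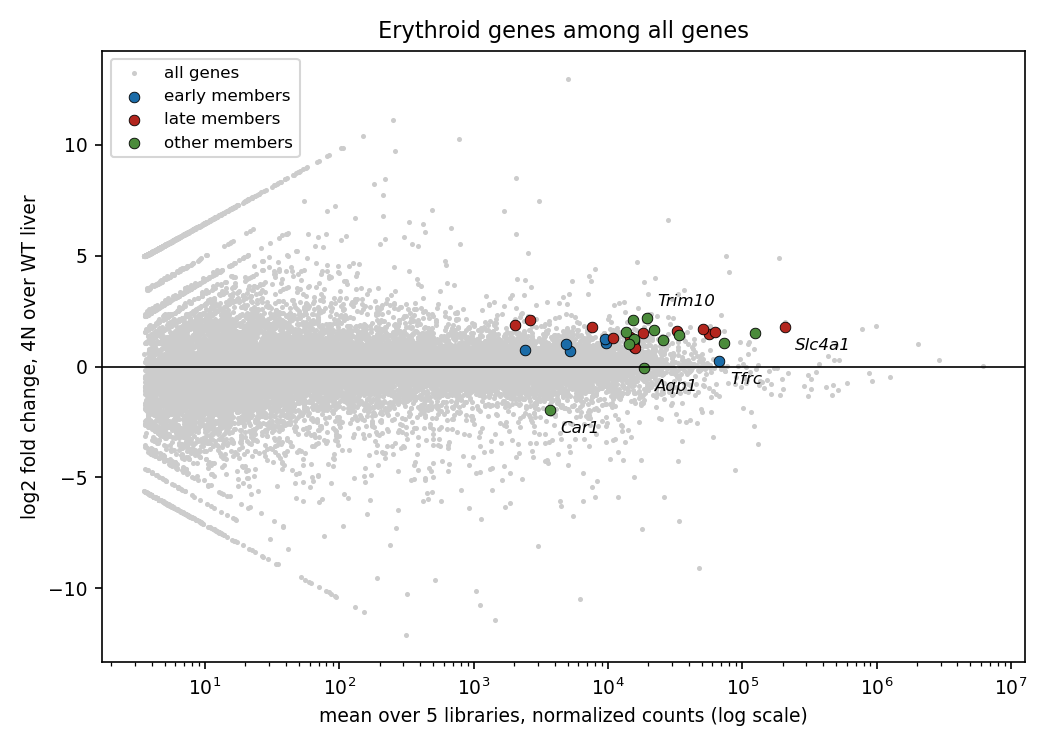
Mean over 5 libraries in normalized counts on a log axis against the log2 fold change, 4N over WT liver, for all 23022 genes (grey) and the 32 erythroid members (coloured by stage). The members sit between 2042 and 206578 normalized counts and mostly above 0, with Car1 at -1.98 below; the straight grey lines at low means are genes with few or no reads in one group.

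Of the remaining members, all 3 measured ones rose. Trim10, a tripartite motif protein needed for terminal erythroid maturation in mouse cells, had 28435 normalized counts in 4N and 6291 in WT livers. Its log2 fold change of 2.18 (SE 0.25, adjusted p = 1.3e-16, per the authors' deposited table) was the highest of the 32 members. Slc25a37, mitoferrin, which brings iron into mitochondria for heme, had 167485 in 4N and 57828 in WT livers (1.53, SE 0.19, per the authors' deposited table). Hemgn, a nuclear protein under Gata1 control, had 33248 in 4N and 14279 in WT livers (1.22, SE 0.20, per the authors' deposited table). The iron carrier of the mitochondrion thus rose while the iron receptor of the cell surface, Tfrc, did not pass.

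Globins and heme enzymes gave a scale for these changes. The adult beta globins Hbb-bs and Hbb-bt had log2 fold changes of 1.71 (SE 0.20) and 2.03 (SE 0.27) per the authors' deposited table, a mean of 1.87. Only Trim10, Tmod1 and Bpgm among the members lay above that mean. After recentring on it, an alternative that ignores the globins' own error, 0 members were higher and 18 lower. These 18 included 8 of 8 early and 3 of 12 late members, the late ones being Bnip3l, Add2 and Dmtn. The recentred medians were -0.94 for early and -0.29 for late members. This scaling moves every gene down by 1.87, and over all genes it gave 254 higher and 16087 lower. Of 8 heme synthesis enzymes 7 rose, with a median of 1.27. Alas2, the erythroid first enzyme of the pathway, had the smallest adjusted p (1.82, SE 0.22) and Alad, its second enzyme, the highest fold change (2.22, SE 0.29), per the authors' deposited table. All 7 measured globins, adult and embryonic, rose. The alpha globin copy Hba-a2 stood at 3.29 (SE 0.34) per the authors' deposited table, but its reads can be shared with the near-identical Hba-a1, as those of Hbb-bs can with Hbb-bt, so each single value is uncertain.

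Other genes of the same roles rose in part. Of 18 other membrane and skeleton genes, 12 rose and 0 fell, with a median of 0.83 on the log2 scale. Among them Stom, the membrane protein stomatin (1.35, SE 0.19), Add1, alpha adducin (1.29, SE 0.21), and Cldn13, a claudin of mouse erythroblasts (1.42, SE 0.24), had the smallest adjusted p-values per the authors' deposited table. Of 14 other erythroid transcription regulators 5 rose and 0 fell, with a median of 0.49. They were led by Foxo3, a stress and autophagy regulator (1.49, SE 0.20), Nfe2, which drives globin genes (1.33, SE 0.24), and Sox6, a repressor of embryonic globin (1.06, SE 0.24), per the authors' deposited table. Of 15 other clearance and enucleation genes 5 rose and 0 fell, with a median of 0.32. Ube2o, which tags proteins for removal in reticulocytes, stood out at 2.03 (SE 0.31) per the authors' deposited table, followed by the Myc antagonist Mxi1 (0.82, SE 0.20) and the autophagosome gene Gabarapl2 (0.74, SE 0.22). Of 14 red cell glycolytic and antioxidant enzymes 9 rose, with a median of 0.76, led by the glycolytic mutase Pgam1 (1.70, SE 0.23), the glutathione peroxidase Gpx1 (1.59, SE 0.21) and Pklr, red cell and liver pyruvate kinase (1.37, SE 0.20), per the authors' deposited table. These lists, like the members, were chosen with earlier results of these data known.

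Most genes on the stem and progenitor, erythropoietin signalling and iron lists were uncalled. So were 19489 of all 23022 genes and 6735 of the 8656 genes with means from 1000 normalized counts up. Of 14 stem and progenitor genes 2 rose and 1 fell, with a median of 0.09. Kit, the stem cell factor receptor of progenitors and early erythroblasts, rose (0.88, SE 0.22), as did the lymphoid and myeloid progenitor receptor Flt3 (1.49, SE 0.32), and Hlf, a transcription factor of stem cells and hepatocytes, fell (-0.78, SE 0.23), per the authors' deposited table. Of 15 erythropoietin signalling genes 3 rose and 1 fell, with a median of 0.18. The 3 were targets of the pathway, namely the survival gene Bcl2l1 (1.55, SE 0.27), the kinase gene Pim1 (1.49, SE 0.30) and the feedback inhibitor Cish (1.28, SE 0.32), per the authors' deposited table. Further targets were among the 11 not called, with values on both sides of 0. These were Erfe (-0.81, SE 0.42), Socs2 (-0.68, SE 0.76), Socs3 (0.56, SE 0.40) and Socs1 (1.23, SE 0.65), per the authors' deposited table. The 1 that fell was Epo itself, named after its values were seen, with few reads, 4.25 normalized counts in 4N and 62.2 in WT livers (-3.87, SE 0.99, per the authors' deposited table). Of 14 iron uptake and storage genes 2 rose and 1 fell, with a median of 0.17. Ncoa4, which releases iron from ferritin (1.20, SE 0.21), and Abcb10, a mitochondrial transporter of erythroid cells (1.19, SE 0.19), rose, and Tfr2, the iron sensor of hepatocytes and erythroblasts, fell (-1.52, SE 0.23), per the authors' deposited table.

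**Figure D4:**
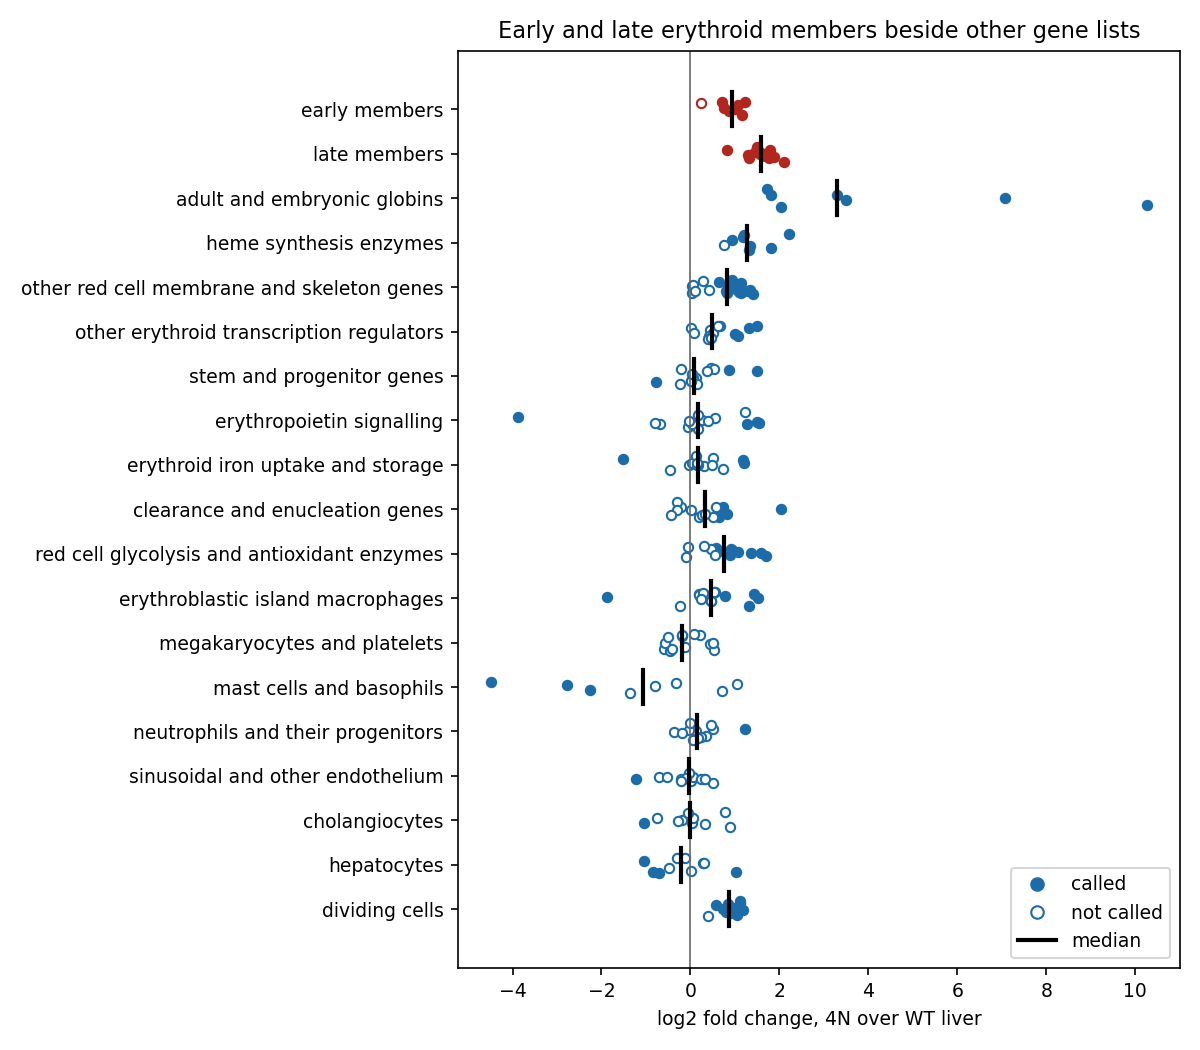
Log2 fold change, 4N over WT liver, of the early and late erythroid members (red) and of other gene lists (blue), 1 point per gene, filled where called, with the list's median as a black bar. The late median lies at 1.58 and the early one at 0.93, while megakaryocyte, endothelial and cholangiocyte medians lie at -0.18, -0.03 and -0.0070.

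Several of the early regulators also work in platelet-forming and mast cells, so markers of those cells are given beside them. Of 13 measured megakaryocyte and platelet markers 0 were called by the authors' Wald test at an adjusted p under 0.05 (3 at an unadjusted p under 0.05), with a median of -0.18 and summed group means of 34551 in 4N and 40051 in WT livers. The most abundant were the platelet chemokine Ppbp (-0.51, SE 0.24) and the integrin Itgb3 (-0.12, SE 0.25) per the authors' deposited table. Mast cell and basophil markers had 0 higher and 3 lower of 8, with summed group means of 844 in 4N and 6197 in WT livers, and Hdc, Prss34 and Mcpt8 fell (-4.49, -2.77 and -2.26 per the authors' deposited table). Hdc alone held 3958 of the WT sum. Of the 5 not called, Cma1 (1.04, SE 1.07) and Tpsb2 (0.70, SE 1.10) lay above 0. Mcpt4 (-0.32, SE 1.53), Cpa3 (-0.79, SE 0.54) and Ms4a2 (-1.35, SE 0.54) lay below it. Whether mast cells or basophils carried the difference was not tested. Neutrophil markers had 1 higher of 12, Mmp8 (1.24, SE 0.25, per the authors' deposited table), and a median of 0.14. Of 16 markers of the macrophages that nurse erythroblasts 4 rose and 1 fell, with a median of 0.47. Hmox1, which breaks down heme (1.43, SE 0.22), and Siglec1, a sialic acid receptor (1.32, SE 0.23), rose, and Vsig4, a complement receptor of Kupffer cells, fell (-1.87, SE 0.39), per the authors' deposited table. Of 12 genes of dividing cells 11 rose, with a median of 0.87, and the smallest adjusted p-values were those of cyclin A2 (Ccna2, 1.12, SE 0.21), the kinetochore gene Cenpf (1.18, SE 0.22) and the mitotic kinase gene Aurka (0.95, SE 0.19) per the authors' deposited table. Hepatocyte genes moved the other way in part. Of 10 hepatocyte markers 1 rose and 3 fell, with a median of -0.21. Their summed group means were 14596177 in 4N and 13811857 in WT livers, so the sum was higher in 4N. The 1 that rose was Afp (1.03, SE 0.26), which had the smallest adjusted p of the 10, per the authors' deposited table. Next came Apob (-1.05, SE 0.32) and Apoa2 (-0.71, SE 0.24), which fell, per the authors' deposited table. Of 27 secreted plasma proteins, which hepatocytes make and which include 7 of those 10 markers, 0 rose and 14 fell, with a median of -0.60 and summed group means of 11498276 in 4N and 13406265 in WT livers, and recentring on this list sets its median to 0. The smallest adjusted p-values among them were those of the heme carrier hemopexin (Hpx, -2.67, SE 0.20), fetuin B (Fetub, -2.36, SE 0.27) and angiotensinogen (Agt, -1.38, SE 0.22) per the authors' deposited table. The part of these cells in the members' values was not tested.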

How the data were processed

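RNA was measured in 5 liver libraries at E18.5, 3 in the 4N and 2 in the WT group, as their titles group them. Per the submitters' processing notes the build was GRCm39, and aligner and counter are not given in the sources available. The authors deposited a table of 1 comparison, with 0 columns of single samples. Per the file headers its signal is the mean normalized count over all libraries, fold changes and standard errors are log2 values, and the Wald statistic is a score. The authors' p-values and adjusted p-values stand in columns named as in DESeq2 output, per the file headers. The adjusted p of all 23022 genes agreed, within a relative tolerance of 0.01, with a recomputed Benjamini-Hochberg adjustment of the 2-sided normal tail.

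Group means, 95% intervals, calls at an adjusted p under 0.05, counts and medians were computed from the table. Named genes were all members and, in each other list, up to 3 called genes with the smallest adjusted p, or the 2 most abundant where none was called. Members and lists were chosen with earlier results of these data known, so no list was tested. Calls were tested on simulated data. The simulation for the direction of the fold change used the same floor as the inference. It therefore checked the calculation only and cannot show that the deposited values follow that floor. The alternatives were an adjusted p of 0.01, a test against a 1.5-fold change, a t distribution with 3 degrees of freedom, a minimum mean of 50, recentring (on genes with means from 10000 up, on 27 secreted plasma proteins or on the adult beta globins) and other group memberships. Chromosomes and promoters came from RefSeq on GRCm38.p6, by symbol. Tools were Python 3.11.15 with numpy 2.4.6, pandas 2.3.3 and scipy 1.17.1, and matplotlib 3.10.9 for plots.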

Additional observations from a re-analysis of the deposited data

How the results depend on the processing

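The 29 higher and 1 lower members were 25 to 30 and 1 at an adjusted p of 0.01, with a minimum mean of 50 and with recentring on genes with means from 10000 up or on secreted plasma proteins. Against a 1.5-fold change they were 20 and 1, with 1 early member higher. At an adjusted p of 0.01, 3 early members stayed higher. By a t distribution with 3 degrees of freedom, 0 members, 0 early, 0 late and 0 of all genes were called higher or lower, and the smallest adjusted p of any gene was 0.37. Over all genes, 1210 were higher at an adjusted p of 0.01, and 521 higher and 588 lower against a 1.5-fold change, in place of 1828 and 1705. Recentring on secreted plasma proteins moved every value up by 0.60, gave medians of 1.54 for early and 2.19 for late members, 7089 higher and 835 lower genes, and turned Aqp1 to 0.52, uncalled. Recentring on the adult beta globins gave 0 higher members and 18 lower, 0 higher and 8 lower early, 0 higher and 3 lower late members, medians of -0.94 and -0.29, and 254 higher and 16087 lower genes. It turned the early members to -1.15 for Gata1, -0.80 for Klf1, -0.70 for Tal1, -1.005 for Zfpm1, -0.65 for Lmo2, -1.11 for Gfi1b, -0.87 for Epor, -1.64 for Tfrc. It turned the late members to -0.10 for Slc4a1, -0.37 for Epb42, -0.41 for Epb41, -0.30 for Sptb, -0.28 for Ank1, -0.58 for Add2, -0.55 for Dmtn, -1.05 for Bnip3l, -0.19 for Xpo7, -0.00030 for Trim58, -0.086 for Fhdc1. It turned the others to -0.44 for Ermap, -0.63 for Rhag, -0.32 for Rhd, -0.24 for Kel, -0.87 for Tspan33, -0.81 for Car2, -0.34 for Slc25a37, -0.65 for Hemgn. These turns follow from the subtraction itself. Leaving out each replicate was not run, since per-library values were not analysed here. No paired analysis was possible because the groups share no replicate numbers and the table holds no values of single libraries.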

Other observations

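The carbonic anhydrase and aquaporin families, singled out after values were seen, held calls in both directions. Of 14 genes with a carbonic anhydrase symbol (Car and a number), Car1 and Car2 included, 2 were higher, 3 lower and 9 not called. The second higher one was Car5b, at 82.8 normalized counts in 4N and 14.4 in WT livers (2.52, SE 0.70, per the authors' deposited table). Car3, which lies between Car1 and Car2 on mouse chromosome 3, fell to 1539 normalized counts in 4N livers, against 3166 in WT livers (-1.04, SE 0.23, adjusted p = 1.5e-04 per the authors' deposited table). Car13, their neighbour, had 219.9 in 4N and 230.7 in WT livers and did not pass (-0.07, SE 0.39, per the authors' deposited table). The mitochondrial Car5a fell (-1.34, SE 0.25, per the authors' deposited table), while Car8 (-0.42, SE 0.23) and Car14 (-0.0019, SE 0.25) did not pass, per the authors' deposited table. Of 7 aquaporins, Aqp1 included, 2 were higher, 2 lower and 3 not called. Aqp8 rose to 31088 normalized counts in 4N livers, against 3170 in WT livers (3.29, SE 0.39, per the authors' deposited table). Aqp11 rose to 4722 in 4N livers, against 1674 in WT livers (2.82-fold, SE 0.21 on the log2 scale, per the authors' deposited table). Aqp9, the glycerol channel of hepatocytes, fell to 2535 in 4N livers, against 11802 in WT livers (-2.22, SE 0.25, per the authors' deposited table). Aqp3 fell to 275.2 in 4N livers, against 712.5 in WT livers (-1.37, SE 0.38, per the authors' deposited table).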
